A study of Mus musculus with 16 samples.

Results

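The 35 mitochondrially encoded genes of a mouse germinal centre B cell RNA-seq series were chosen by their symbol, as the rows of the count table that start with mt-, out of 48593 rows in all. They were the 13 protein-coding genes and the 22 tRNA genes of the mitochondrial genome. The rRNA genes mt-Rnr1 and mt-Rnr2 were not analysed here. Counts were found for 33 members. The aspartate and lysine tRNA genes mt-Td and mt-Tk had 0 counts in all 16 libraries, which allows a share of up to 0.00345 per 1000000 counts over the series (3 counts of the total, counting error only).

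Spleen B cells of mice immunised with sheep red blood cells were enriched with an isolation kit, germinal centre cells were sorted for B220, PNA and CD95, and their total RNA was sequenced. By title, the 16 libraries fell into 5 groups. KO had 3 libraries from mice homozygous for a Crebbp knockout allele, and KO cohort WT had 3 libraries labelled Crebbp wild type from the same cohort. RH HET had 4 libraries heterozygous and RH HOMO 3 libraries homozygous for a Crebbp knock-in allele called RH, and RH cohort WT had 3 wild-type libraries of that cohort. The series title describes both alleles as conditional and germinal centre specific, and the Cre driver, strain, age and sex were not given in the labels. Cells were collected 12 days after immunisation by the growth protocol and 10 days by a sample tag. The library RH cohort WT 1 carries a batch tag of the KO cohort against its title, and the main results that use it are also given without it. Nothing states that libraries of a group came from separate mice, and p-values measure only the spread between these libraries. In bulk RNA, more mitochondria per cell, more RNA per mitochondrion and a different mix of cells cannot be told apart.

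Mitochondria keep a small circular genome of their own, which encodes subunits of the respiratory chain and of ATP synthase together with the tRNAs and rRNAs that translate them. Both strands are transcribed by the RNA polymerase Polrmt into long precursors, and tRNAs punctuate the precursors so that their excision releases most of the mRNAs. Germinal centre B cells divide rapidly and are known for active oxidative metabolism. Because the members share precursors and may share reads at their edges, they are not independent measurements of a condition.

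Libraries held 41362856 to 93040297 counts. The gene-level count of Crebbp was 108 to 137 CPM in KO, 124 to 138 in RH HET, 68.6 to 126 in RH HOMO, 91.3 to 122 in RH cohort WT and 127 to 149 in KO cohort WT. A gene-level count does not check a deletion of part of a gene. CPM here is the count per 1000000 of the scaled library size. The 13 germinal centre B cell markers summed to 8765 to 10384 CPM over the 16 libraries. Granulocyte markers summed to 0 to 0.671 CPM and NK cell markers to 0.262 to 1.53 CPM. Macrophage markers summed to 14.3 to 30.8 CPM, stroma and endothelium markers to 43.6 to 74.0 CPM, of which Pecam1 averaged 57.3, and dendritic cell markers to 35.3 to 59.5 CPM, of which Flt3 averaged 46.7. T cell markers summed to 78.1 to 161 CPM and erythroid markers to 111 to 148 CPM, with Lck at 112 and Tfrc at 115 CPM as their highest members. Plasma cell markers summed to 567 to 706 CPM, mostly Jchain.

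A stretch of the mitochondrial genome exists again in the nuclear genome, and this sets how far each member's count can be read. In GRCm38 with the GENCODE M21 annotation, 7 unprocessed pseudogenes on the minus strand of chromosome 1, from 24611535 to 24616197, follow each other as copies of mt-Co1, mt-Co2, mt-Atp6, mt-Co3, mt-Nd3, mt-Nd4l and mt-Nd4. They mirror positions 6381 to 11042 of the mitochondrial genome. The copies of mt-Co2 (Gm28661, 681 of 681 bases), mt-Co3 (Gm28437, 783 of 783), mt-Atp6 (Gm10925, 678 of 678) and mt-Nd4l (Gm10222, 294 of 294) are identical to the member over their whole length. Gm28438 differs from mt-Nd3 in 1 of 345 bases. Older copies on chromosome 2 differ more, and Gm13340 differs from mt-Co1 in 37 of 1545 bases. To show what a read of 50 or 60 bases can tell apart, the opening bases of mt-Co2 (chrM:7013-7072, plus strand) and of its copy (chr1:24615506-24615565, minus strand) are set beside the 60 bases of mt-Co1 (chrM:5787-5846, plus strand) that differ most from Gm13340 (chr2:22589129-22589188, minus strand). Capitals mark the bases that differ within a pair, and the first pair has none.
mt-Co2: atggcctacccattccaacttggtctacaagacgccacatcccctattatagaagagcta
Gm28661: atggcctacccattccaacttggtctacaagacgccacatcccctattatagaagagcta
mt-Co1: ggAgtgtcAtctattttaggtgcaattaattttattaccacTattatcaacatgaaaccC
Gm13340: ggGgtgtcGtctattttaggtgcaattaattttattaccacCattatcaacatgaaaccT

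The start of a second mRNA inside the copied span and its nuclear copy is shown because this mRNA had the highest value of any span member in a library (mt-Nd4l, chrM:9877-9936, plus strand, and Gm10222, chr1:24612641-24612700, minus strand). These stretches are also identical.
mt-Nd4l: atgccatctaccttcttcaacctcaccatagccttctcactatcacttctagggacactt
Gm10222: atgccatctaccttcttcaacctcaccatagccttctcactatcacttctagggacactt

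Of the 35 members, 11 lie wholly inside the copied span, 2 partly and 22 outside it. Of all windows of 50 bases in a member's transcript, the share found unchanged in a nuclear transcript was 100% for mt-Co2, 99.86% for mt-Co3, 99.53% for mt-Atp6, 98.79% for mt-Nd4l and 97.99% for mt-Nd3. It was 62.23% for mt-Nd4, 51.14% for mt-Co1, 8.19% for mt-Nd2, 7.61% for mt-Nd5 and 0% for mt-Nd1, mt-Cytb and mt-Nd6. mt-Atp8 also had 0%, since no gene model covers its part of the block, although it lies inside the span. The tRNA genes had 0%, and the genome sequence between the gene models was not used here. How the authors treated reads that map to more than 1 place is not given in the sources used here.

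Levels per length split the protein-coding members into 2 sets that did not overlap in any library. Over 16 libraries, mt-Co1, a cytochrome c oxidase subunit, averaged 12338 ± 3204 CPM per 1000 bases (SD, n = 16), mt-Cytb, the cytochrome b of the bc1 complex, 7882 ± 2204, and the complex I subunit mRNA mt-Nd1 6880 ± 2108. The other complex I subunit mRNAs outside or partly in the span were mt-Nd6 at 3804, mt-Nd5 at 2962, mt-Nd2 at 2526 and mt-Nd4 at 2137 CPM per 1000 bases. The ranges of these 4 over the libraries overlapped, as did those of mt-Co1, mt-Cytb and mt-Nd1.

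The 6 mRNAs wholly inside the span were lower by orders of magnitude. mt-Nd4l, a complex I subunit, had a median of 3.01 CPM per 1000 bases, and mt-Nd3, another complex I subunit, 12.97. The cytochrome c oxidase subunits mt-Co2 and mt-Co3 had medians of 2.10 and 2.18, and the ATP synthase subunits mt-Atp6 and mt-Atp8 had medians of 1.47 and 1.26 CPM per 1000 bases. The highest value of any of the 6 in any library was 377 CPM per 1000 bases, and the lowest value of any of the other 7 mRNAs was 1554. Their levels below are those counted and are not taken as levels of the mitochondrial mRNA. Whether the copies or the treatment of shared reads set these levels was not tested.

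**Figure D1:**
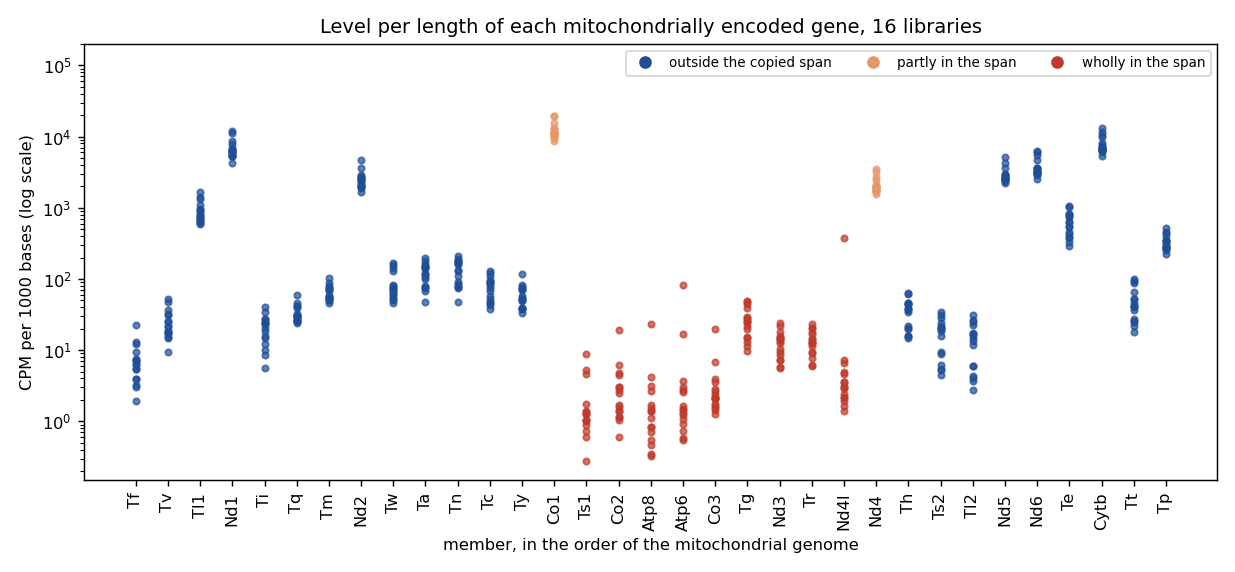
Level of each member per length in the order of the mitochondrial genome, in CPM per 1000 bases on a log scale, with a point for each of the 16 libraries and colours for the position relative to the span copied on chromosome 1 (zero values, all of mt-Td and mt-Tk and 1 library of mt-Ts1, are not drawn). The 7 mRNAs outside or partly in the span lie above 1554 CPM per 1000 bases, and the 6 mRNAs wholly inside it lie at or under 377.

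The nuclear copies were counted too, at low levels. Over the whole series mt-Co2 had 2041 counts against 11753 for Gm28661, mt-Co3 had 2494 against 13804 for Gm28437, and mt-Atp6 had 5302 against 10328 for Gm10925. The reverse held for mt-Nd3, with 3879 counts against 737 for Gm28438, and for mt-Nd4l, with 5107 against 1860 for Gm10222. The copies found in the table summed to 22.8 to 48.8 CPM in KO, 26.3 to 60.8 in RH HET, 58.5 to 104 in RH HOMO, 62.7 to 179 in RH cohort WT and 52.0 to 91.3 in KO cohort WT. Even the highest of these sums is small beside mt-Nd6, the lowest of the 7 abundant mRNAs by CPM, at 1327 to 3248 CPM.

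All members together took 3.43 to 7.34% of a library's counts. The share was 4.65, 3.43 and 3.93% in KO libraries, a mean of 4.003 ± 0.615 (SD, n = 3), and 3.90, 4.47 and 4.03% in KO cohort WT libraries, a mean of 4.13 ± 0.299 (n = 3). Groups of the KO cohort overlapped. It was 3.93, 5.84, 4.32 and 4.17% in RH HET (4.57 ± 0.862, n = 4), 4.59, 5.28 and 4.32% in RH HOMO (4.73 ± 0.495, n = 3) and 7.34, 7.15 and 4.72% in RH cohort WT (6.40 ± 1.46, n = 3, and 5.94 without RH cohort WT 1). RH cohort WT 1 and 2 stood above the other 14 libraries, while RH cohort WT 3 lay within the range of RH HET and of RH HOMO. The 95% Wilson intervals of these shares, which hold counting error alone, were at most 0.0159 percentage points wide. At this depth they are narrow in any case, so they do not measure the spread between libraries. RH cohort WT 1, the library with the conflicting tag, had 2.09% of its counts in rRNA-like nuclear gene models, the highest of the series, whereas RH cohort WT 2 had 0.324%, the lowest, and RH cohort WT 3 had 0.446%.

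**Figure D2:**
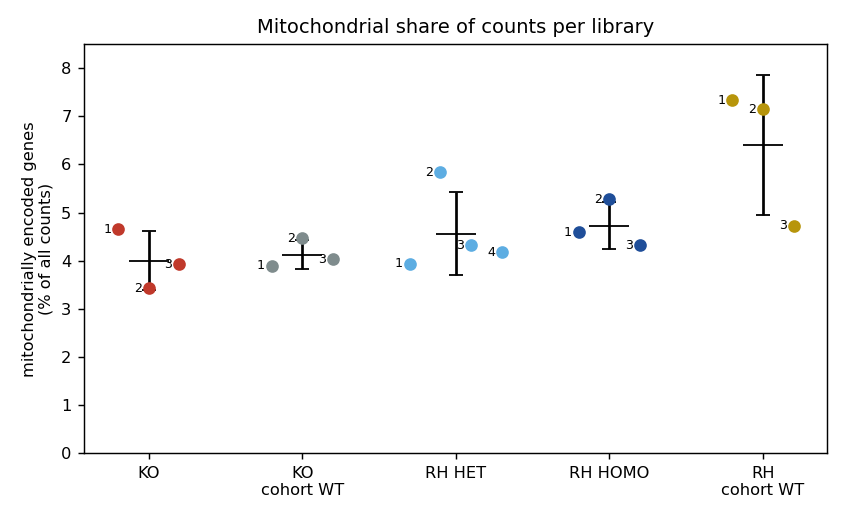
Share of all counts taken by the 35 mitochondrially encoded genes, in percent, with a numbered point for each library and the mean ± SD of each group. RH cohort WT 1 and 2 lie at 7.34 and 7.15%, and the other 14 libraries lie between 3.43 and 5.84%.

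Within the mitochondrial counts, the 7 abundant mRNAs made up 99.46 to 99.69% in every library. The 17 tRNAs outside the span held 0.386% of all member counts, the 6 mRNAs inside it 0.0467% and the 5 tRNAs inside it 0.00604%. mt-Co1 alone took 37.86 to 42.04% of the mitochondrial counts and mt-Cytb 17.38 to 20.57%. Between libraries the shares of the 7 abundant mRNAs had a coefficient of variation of 3.03 to 12.3%, with mt-Nd4 and mt-Co1 the steadiest. That of the 17 tRNAs outside the span was 14.6 to 63.9%, and that of the 6 mRNAs inside it 37.7 to 320%.

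RH HOMO 2 had a composition of its own. mt-Nd5 took 8.31% of its mitochondrial counts and 10.38 to 12.58% in the other 15 libraries. mt-Nd6 took 5.94% there and 3.80 to 4.31% in the others. The ratio of mt-Nd5 to mt-Nd6 counts was 1.40 in RH HOMO 2 and 2.69 to 3.19 elsewhere, so no other library came near it. mt-Nd5 (11742 to 13565) and mt-Nd6 (13552 to 14070) meet on the mitochondrial genome and lie on opposite strands. The strand setting of the counting is not given in the sources used here, and without strand, reads from mt-Nd6 and from RNA antisense to it cannot be told apart.

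**Figure D3:**
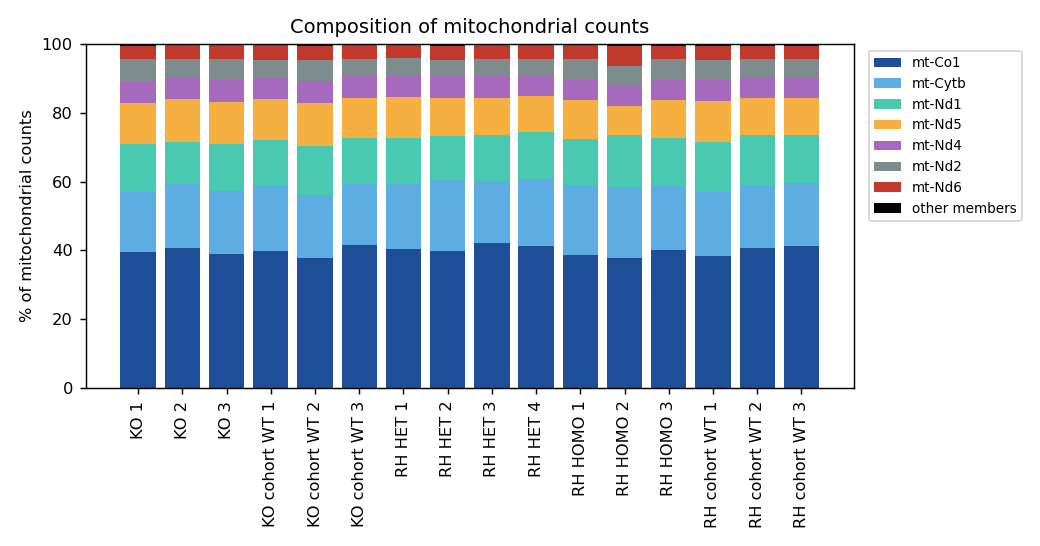
Percent of mitochondrial counts taken by each of the 7 abundant mRNAs and by the other 28 members together, in each library. RH HOMO 2 stands apart in mt-Nd5, at 8.31%, and in mt-Nd6, at 5.94%. The share of mt-Nd2 runs from 4.72% in RH HET 2 to 6.52% in KO 1.

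Most of the spread of the 6 mRNAs inside the span came from jumps in one library each. mt-Nd4l had 112 CPM in RH cohort WT 1, from 4271 counts, and 0.420 to 2.13 CPM in the other 15 libraries. Its copy Gm10222 was at 7.42 CPM in that library, also its highest. That was 3.70 times the median of the other libraries, against 129 times for mt-Nd4l. Copies of other members were highest there too, such as Gm10925 at 3.83 and Gm28661 at 3.76 times that median. mt-Atp6 had 56.5 CPM in RH HET 2, from 3852 counts, then 11.5 CPM in RH cohort WT 2 and 0.373 to 2.55 CPM in the rest. mt-Atp8, which overlaps mt-Atp6 on the genome (7766 to 7969 against 7927 to 8607), had 4.75 CPM in RH HET 2 and 0.0663 to 0.856 CPM elsewhere. Both jumps fell in the same library, and the 2 genes share bases. How reads over the shared bases were counted is not given in the sources used here.

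mt-Co2 had 13.01 CPM in KO 1, from 719 counts, against 0.414 to 4.17 CPM in the other libraries. mt-Co3 had 15.5 CPM in KO 1, from 855 counts, and 0.994 to 5.35 CPM elsewhere. Their copies had their highest values elsewhere. Gm28661 was highest in RH cohort WT 1 at 34.9 CPM and stood at 7.66 CPM in KO 1, and Gm28437 was highest in RH cohort WT 2 at 72.7 CPM and stood at 17.1 CPM in KO 1. mt-Nd3 had no such jump, with 1.93 to 8.47 CPM over the 16 libraries.

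**Figure D4:**
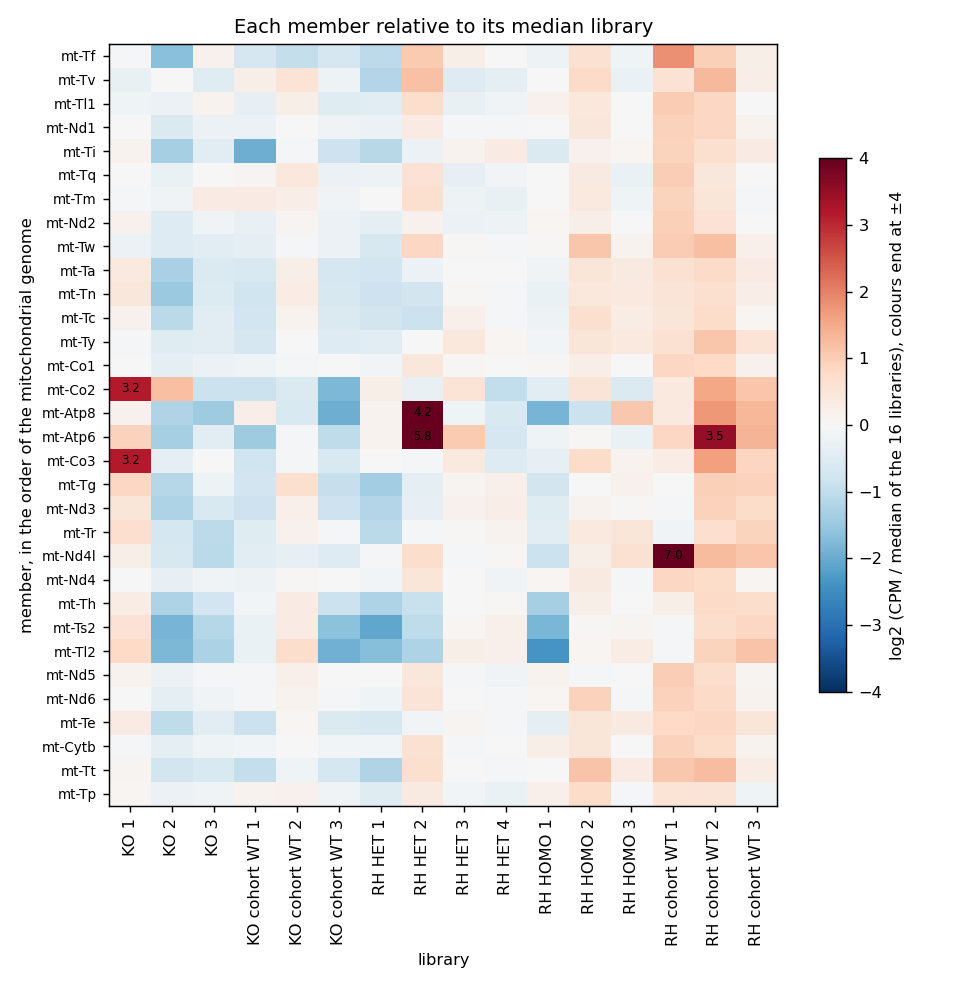
Log2 ratio of each member's CPM to its median over the 16 libraries, members in the order of the mitochondrial genome and libraries by group (mt-Ts1, mt-Td and mt-Tk, which hold zeros, are left out; values beyond 2.5 are printed). The dark cells are mt-Nd4l in RH cohort WT 1, mt-Atp6 and mt-Atp8 in RH HET 2, mt-Co2 and mt-Co3 in KO 1 and mt-Atp6 in RH cohort WT 2.

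The tRNA genes outside the span spanned 7.39 CPM per 1000 bases for the phenylalanine tRNA mt-Tf to 910 for mt-Tl1, one of the leucine tRNAs. mt-Te, the glutamate tRNA next to mt-Nd6, averaged 615 ± 238, and the proline tRNA mt-Tp 333 ± 82.0 CPM per 1000 bases (SD, n = 16). The 3 following, mt-Tn, mt-Ta and mt-Tw, were at 129.6, 119.7 and 85.4, within each other's spread. Mature tRNAs are far shorter than the fragments such libraries hold, and a read counted at a tRNA gene may come from a precursor or a neighbour. Of the 5 tRNAs inside the span, mt-Tg and mt-Tr averaged 26.2 and 13.5 CPM per 1000 bases, mt-Ts1 had 0 to 34 counts a library, and mt-Td and mt-Tk had none.

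Some tRNAs kept a steady share and others did not. The share of mt-Tl1, mt-Tp, mt-Tm and mt-Tq among mitochondrial counts varied 1.65 to 1.71-fold between the lowest and the highest library. That of mt-Tl2, the other leucine tRNA, varied 11.0-fold, that of mt-Ts2 6.23-fold, that of mt-Tf 4.76-fold, that of mt-Ti 4.46-fold and that of mt-Th 3.999-fold. mt-Th, mt-Ts2 and mt-Tl2 are neighbours (11546 to 11741) between mt-Nd4 and mt-Nd5, whereas mt-Tf and mt-Ti lie elsewhere. mt-Tl2 had 1.76, 0.288 and 0.420 CPM in KO libraries and 0.828, 1.62 and 0.265 CPM in KO cohort WT libraries. It had 0.307, 0.425, 1.19 and 1.16 CPM in RH HET, 0.194, 1.06 and 1.23 CPM in RH HOMO, and 0.943, 1.88 and 2.20 CPM in RH cohort WT. KO 1, RH HET 3 and 4, RH HOMO 2 and 3 and KO cohort WT 2 were high within their groups for these neighbours. Libraries of the same genotype thus stood apart. Those libraries were also high within their groups for mt-Ti, mt-Ta, mt-Tn and mt-Tg. The pattern was therefore not particular to the neighbours, and mt-Ti had 0.696, 1.29, 1.67 and 1.91 CPM in RH HET.

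The question of the KO comparison was what loss of Crebbp does to these transcripts. The abundant mRNAs stood at close levels in KO and KO cohort WT. Their log2 differences ran from -0.18 for mt-Nd6 to 0.01 for mt-Nd2, and mt-Co1 averaged 15178 ± 1941 CPM in KO, against 16388 ± 1017 CPM in KO cohort WT (SD, n = 3 each). Over the 33 members tested, 13 differences were positive and 20 negative, with a median of -0.06 beside -0.002 over all 16606 genes tested. This balance turned with single libraries. Without KO 2, KO 3 or KO cohort WT 2 the median was 0.15, 0.08 or 0.16, with 21, 20 or 22 members positive, and without KO 1 it was -0.27, with 29 members negative. By edgeR's quasi-likelihood test with Benjamini-Hochberg adjustment over all genes, 1 member rose and 0 fell, where 0.572% of all genes tested rose and 0.729% fell, 1.3% in all. Of 33 members, 0 had groups that did not overlap, where 12.7% of all genes stood apart upward and 12.7% downward. All 20 tRNAs tested had adjusted p of at least 0.774.

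The member called in KO was mt-Co2. It had 13.01, 3.30 and 0.783 CPM in KO libraries, against 0.787, 0.962 and 0.414 CPM in KO cohort WT libraries. KO 1 holds most of the difference, and KO 3 lies inside the range of the KO cohort WT libraries. The log2 difference was 2.97 ± 0.70 (SE, adjusted p = 0.0472), and without KO 1 it was 1.49 (adjusted p = 0.369). Over the 16 fits that each leave out 1 library of the series, the call held in 4, and leaving out KO 3 was the only one of the 6 compared that kept it. mt-Co3 had 15.5, 1.31 and 1.68 CPM in KO, against 0.994, 1.66 and 1.13 CPM in KO cohort WT, a log2 difference of 2.28 ± 0.68 that did not pass (adjusted p = 0.126). Without KO 1 it was 0.24 (adjusted p = 0.923).

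Marker sums of 6 other cell types were lower in KO, each without overlap. Of all single genes tested, 12.7% stood apart downward and 12.7% upward. The highest members of these lists were Lck for T cells, Flt3 for dendritic cells and Jchain for plasma cells. They were Tfrc for erythroid cells and Pecam1 for stroma and endothelium. The median log2 difference over the list was 0.65 for T cell and 0.02 for plasma cell markers, which did not follow their sums. It was -0.58 for dendritic cell, -0.08 for erythroid, -0.24 for stroma and endothelium and -1.09 for NK cell markers. T cell markers summed to 78.1 to 82.5 CPM in KO, against 97.8 to 111 CPM in KO cohort WT. Dendritic cell markers summed to 35.3 to 39.1 CPM in KO, against 47.0 to 58.0 CPM in KO cohort WT, and plasma cell markers to 567 to 586 CPM in KO, against 646 to 676 CPM in KO cohort WT. Erythroid markers summed to 118 to 128 CPM in KO, against 138 to 146 CPM in KO cohort WT. The erythroid marker called in KO, Car2, was higher there, against the sum. Stroma and endothelium markers summed to 43.6 to 47.7 CPM in KO, against 49.5 to 61.9 CPM in KO cohort WT. NK cell markers summed to 0.354 to 0.439 CPM in KO, against 0.621 to 0.928 CPM in KO cohort WT. Macrophage marker sums overlapped, at 15.2 to 18.2 CPM in KO and 14.3 to 19.1 CPM in KO cohort WT, with a list median of 0.38. Granulocyte marker sums overlapped too, at 0 to 0.326 CPM in KO and 0.0106 to 0.124 CPM in KO cohort WT. The part of these markers in the mitochondrial values was not tested.

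The question of the RH comparisons was whether the allele, in 1 copy or both, moves the same transcripts. In RH HET, 31 of 33 members had negative differences from RH cohort WT, with a median of -0.73 beside -0.01 over all genes, and 0 passed edgeR's test, where 0.012% of all genes were called higher and 0.00602% lower, 0.0181% in all. The median was -0.74 without RH cohort WT 1. At an unadjusted p under 0.05 there were 17 of the 33 members and 7.18% of all genes. DESeq2 called 1 member lower, where it called 0.211% of all genes lower, and limma-voom called 12, where it called 0.705%. The abundant mRNAs differed by -0.47 for mt-Cytb to -0.71 for mt-Nd2, and by -0.30 to -0.51 without RH cohort WT 1. mt-Nd2 had 1959, 2800, 2122 and 2153 CPM in RH HET, against 4814, 3767 and 2526 CPM in RH cohort WT (log2 difference -0.71 ± 0.19 SE, adjusted p = 0.370). RH HET 2 lay above RH cohort WT 3, so the groups overlapped.

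mt-Co1 averaged 18668 ± 3430 CPM in RH HET (SD, n = 4), against 26667 ± 6073 CPM in RH cohort WT (n = 3), a log2 difference of -0.51 ± 0.15 (SE, adjusted p = 0.416). In 6 members, mt-Nd4l and the tRNAs mt-Ta, mt-Te, mt-Th, mt-Tn and mt-Ty, every RH HET library lay below every RH cohort WT library, where 3.52% of all genes tested did and 2.97% stood apart upward. These were 14 members without RH cohort WT 1, where 6.76% of all genes stood apart downward and 4.99% upward. mt-Te had 26.1, 37.3, 43.4 and 38.1 CPM in RH HET, against 71.0, 72.6 and 57.0 CPM in RH cohort WT (log2 difference -0.88 ± 0.28, adjusted p = 0.463). The 2 members with positive differences were mt-Atp6 (1.52 ± 1.10 SE) and mt-Atp8 (1.16 ± 0.97), which hold the jump in RH HET 2. Without that library they were -2.05 and -1.41, and all 33 members were negative.

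RH HOMO libraries were compared with the same RH cohort WT libraries as RH HET. All 33 members tested had negative differences, with a median of -0.51 beside 0.02 over all genes. The median was -0.47, with 32 members negative, without RH cohort WT 1. An unadjusted p under 0.05 was found for 7 of the 33 members and for 12.9% of all genes. edgeR called 1 member lower and 0 higher, where 0.994% of all genes tested were lower and 0.578% higher, 1.57% in all. The abundant mRNAs differed by -0.25 for mt-Nd6 to -0.62 for mt-Nd5, by -0.10 to -0.42 without RH cohort WT 1, by -0.51 to -0.66 without RH HOMO 2 and by -0.46 to -0.84 without RH cohort WT 3. For mt-Nd6 the difference was -0.63 without RH HOMO 2. mt-Nd5 had 5348, 4543 and 4734 CPM in RH HOMO, against 9540, 7844 and 5138 CPM in RH cohort WT (log2 difference -0.62 ± 0.19 SE, adjusted p = 0.119). RH HOMO 1 lay above RH cohort WT 3.

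mt-Nd4l was the member called in RH HOMO. It had 0.495, 1.06 and 1.37 CPM in RH HOMO, against 112, 2.13 and 1.94 CPM in RH cohort WT. Its groups did not overlap, and RH cohort WT 1 alone stood above 3 CPM. The log2 difference was -5.31 ± 1.13 (SE, adjusted p = 0.0232), and without RH cohort WT 1 it was -1.07 (adjusted p = 0.324). Over the 16 fits that each leave out 1 library of the series, the call held in 12. Among the libraries compared, it was also lost without any 1 of the RH HOMO libraries, and leaving out RH cohort WT 2 or 3 kept it. In RH HET, with 0.860, 1.45, 0.869 and 0.918 CPM, the log2 difference was -5.21 ± 0.999 (adjusted p = 0.123), and without RH cohort WT 1 it was -0.98 (adjusted p = 0.9999). Besides mt-Nd4l, the members mt-Atp6, mt-Te, mt-Ti and mt-Ty had every RH HOMO library below every RH cohort WT library, 5 in all, where 8.03% of all genes tested did and 7.39% stood apart upward. These were 15 members without RH cohort WT 1, where 13.5% of all genes stood apart downward and 12.1% upward.

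Between RH HOMO and RH HET, no member passed the test. edgeR called 0 members in either direction, as it called 0% of all genes, and 2 of the 33 members had an unadjusted p under 0.05, as did 11.4% of all genes. DESeq2 and limma-voom called 0 members each, where they called 0.789% and 0.536% of all genes. Of 33 members, 0 had groups that stood apart, where 3.78% of all genes did so upward and 4.28% downward. The median difference of RH HOMO minus RH HET was 0.12, beside 0.02 over all genes, and it was -0.06 without RH HOMO 2. The abundant mRNAs differed by -0.07 to 0.31, with mt-Nd6 the highest at 2228 ± 887 CPM in RH HOMO (SD, n = 3) and 1797 ± 415 CPM in RH HET (n = 4). The log2 difference of mt-Nd6 was 0.31 and, without RH HOMO 2, it was -0.07, and 6 of the 7 abundant mRNAs were then negative.

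**Figure D5:**
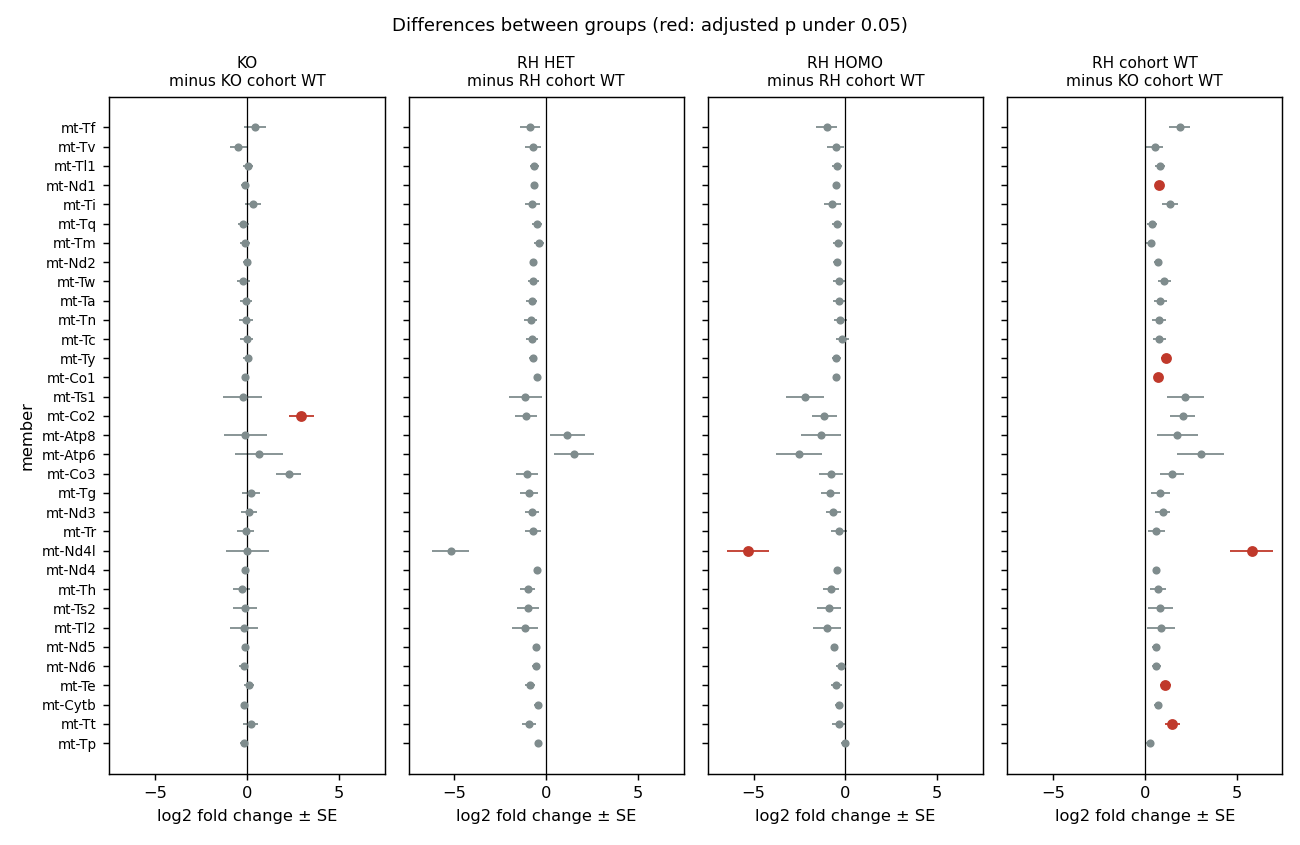
Log2 fold change ± SE of each tested member in 4 comparisons by edgeR, first group minus second, with red for an adjusted p under 0.05. Members lie near 0 in KO, mostly below 0 in RH HET and RH HOMO and above 0 in RH cohort WT, each against the wild-type group named, and the called members are mt-Co2 in KO, mt-Nd4l in RH HOMO and 6 in RH cohort WT.

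Most member calls came from the comparison of the wild-type groups of the 2 cohorts. RH cohort WT was above KO cohort WT in all 33 members tested, with a median log2 difference of 0.85 beside 0.01 over all genes. The same RH cohort WT libraries serve both RH comparisons, so these results are not independent of each other. The mitochondrial share averaged 6.40% in RH cohort WT, 4.57% in RH HET, 4.73% in RH HOMO and 4.13% in KO cohort WT. edgeR called 6 members higher and 0 lower, where 3.17% of all genes tested were higher and 1.88% lower, 5.06% in all. In 16 members every RH cohort WT library lay above every KO cohort WT library, where 17.4% of all genes did and 16.8% stood apart downward. The median was 0.88 without RH cohort WT 1 and such members then numbered 23, where 22.5% of all genes stood apart upward and 21.1% downward. By title the groups belong to different cohorts. RH cohort WT 1 carries the batch tag of the KO cohort against its title, and for the other 5 libraries cohort and batch cannot be told apart. Nuclear-retained RNAs, summed without Xist, had 200, 456 and 444 CPM in RH cohort WT, against 551, 749 and 467 CPM in KO cohort WT. These groups did not overlap, with 456 and 467 CPM the closest. The sums of these RNAs averaged 325 CPM in RH HET and 288 CPM in RH HOMO, below the 367 CPM of RH cohort WT. Their part in the mitochondrial values was not tested.

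Called higher in RH cohort WT were the mRNAs mt-Co1 and mt-Nd1, mt-Nd4l, and the glutamate, threonine and tyrosine tRNAs mt-Te, mt-Tt and mt-Ty. mt-Co1 had 30495, 29841 and 19665 CPM in RH cohort WT, against 15265, 16651 and 17247 CPM in KO cohort WT, and these groups did not overlap (log2 difference 0.70 ± 0.17 SE, adjusted p = 0.0289). mt-Nd1 had 11439, 10701 and 6606 CPM, against 5086, 6140 and 5465 CPM in KO cohort WT (0.78 ± 0.20, adjusted p = 0.0370). RH cohort WT 3 stood close above KO cohort WT for both mRNAs.

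mt-Ty had 5.42, 7.79 and 5.25 CPM in RH cohort WT, against 2.24, 3.55 and 2.53 CPM in KO cohort WT (log2 difference 1.14 ± 0.25 SE, adjusted p = 0.0219). mt-Te averaged 66.9 ± 8.58 CPM in RH cohort WT and 30.8 ± 10.8 CPM in KO cohort WT (1.11 ± 0.30, adjusted p = 0.0417, SD over n = 3 each). mt-Tt averaged 5.33 ± 1.66 CPM in RH cohort WT and 1.88 ± 0.539 CPM in KO cohort WT (1.49 ± 0.40, adjusted p = 0.0424). The lowest RH cohort WT library had 57.0 CPM of mt-Te and 3.47 CPM of mt-Tt, against at most 43.1 and 2.48 CPM in KO cohort WT, so neither overlapped. For mt-Nd4l the log2 difference was 5.83 ± 1.16 (adjusted p = 0.0177) and 1.60 without RH cohort WT 1 (adjusted p = 0.0998). The calls moved with single libraries more than the differences did. Without RH cohort WT 1 edgeR called 0 members and 0.333% of all genes higher, and the abundant mRNAs differed by 0.39 to 0.64, with a median of 0.49 against 0.70 with all libraries. Without RH cohort WT 2 it called 1 member and 0.0643% of all genes, with a median of 0.61. Without KO cohort WT 1, 2 or 3 it called 0 members and 0.0527, 0.00585 or 1.07% of all genes, with medians of 0.63, 0.71 and 0.65. With RH cohort WT 1 counted in KO cohort WT, as its tag has it, 0 members and 0.00583% of all genes were called higher.

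Among nuclear genes that serve the mitochondrial genome, Polrmt and Atad3a passed the test. Of 19 genes of mitochondrial DNA transcription, replication and nucleoids, all tested, Polrmt rose in KO and 0 fell, where 0.572% of all genes rose and 0.729% fell, with a median difference of -0.02 over the list beside -0.002 over all genes. Polrmt averaged 49.4 ± 3.04 CPM in KO and 38.1 ± 0.358 CPM in KO cohort WT (log2 difference 0.37 ± 0.09 SE, adjusted p = 0.0414, SD over n = 3 each). That call was lost without any 1 of the 6 libraries compared (adjusted p = 0.0689 to 0.151), with log2 differences of 0.34 to 0.43. In RH HET 0 of the 19 were called, with a median of -0.10, and in RH HOMO 0, with a median of 0.0002. In RH cohort WT, compared with those same KO cohort WT libraries, Polrmt (0.32 ± 0.09, adjusted p = 0.0420) and Atad3a, a nucleoid-associated membrane ATPase (0.51 ± 0.12, adjusted p = 0.0317), were higher and 0 were lower, 2 of 19 where 3.17% of all genes were higher, with a median of 0.15. Without RH cohort WT 1 neither passed (0.31, adjusted p = 0.138, and 0.46, adjusted p = 0.123). Both were also lost without RH cohort WT 2 or without any 1 of the KO cohort WT libraries. Adjusted p was then 0.0961 to 0.128 for Polrmt and 0.0593 to 0.120 for Atad3a, with log2 differences of 0.32 to 0.33 and 0.45 to 0.55.

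Of 23 tested genes that process, polyadenylate, stabilise or degrade mitochondrial RNA, 0 were called in any of the 5 comparisons. Their median differences were -0.003 in KO, -0.05 in RH HET, 0.06 in RH HOMO, 0.11 in RH HOMO minus RH HET and 0.11 in RH cohort WT minus KO cohort WT. They were, without RH cohort WT 1, 0.04 in RH HET, 0.11 in RH HOMO and 0.02 in RH cohort WT minus KO cohort WT, so the sign turned in RH HET. Of 9 regulators of mitochondrial biogenesis, 0 were called in any of the 5, with medians of -0.01 in KO, 0.04 in RH HET, -0.005 in RH HOMO, -0.01 in RH HOMO minus RH HET and 0.04 between the wild-type groups (without RH cohort WT 1, -0.06 to 0.06).

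The 8 tested gene models of the nuclear copies held 0 calls in any comparison, with a median of -0.76 in KO, -1.42 in RH HET, -0.56 in RH HOMO, 0.84 in RH HOMO minus RH HET and 0.74 in RH cohort WT minus KO cohort WT. The highest library for their sum was RH cohort WT 1, and without it the median was -0.82 in RH HET, -0.13 in RH HOMO and 0.09 in RH cohort WT minus KO cohort WT.

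Among the cell type markers, 5 genes were called. In KO, the germinal centre marker Rgs13 was lower, with 81.0 ± 15.8 CPM in KO and 242 ± 26.7 CPM in KO cohort WT (log2 difference -1.58 ± 0.23 SE, adjusted p = 0.00223, SD over n = 3 each), and it passed in all 25 alternatives. Flt3 was lower in KO by -0.51 ± 0.12 (adjusted p = 0.0473), passed in 11 of 25 and was lost without any 1 of the 6 libraries compared (-0.43 to -0.59). Car2 was higher in KO by 1.004 ± 0.22 (adjusted p = 0.0345) and passed in 20 of 25. Without any 1 of the KO libraries, or without KO cohort WT 1 or 2, Car2 was lost (0.85 to 1.04). Thy1 was higher in RH HOMO, with 1.32 ± 0.470 CPM in RH HOMO and 0.300 ± 0.111 CPM in RH cohort WT (2.16 ± 0.48, adjusted p = 0.0282). Its call was lost without RH HOMO 2, RH cohort WT 2 or RH cohort WT 3 (1.82 to 2.11). Over all genes tested, 0.578% were called higher in RH HOMO. Thy1 did not follow its list, as the T cell markers had a median of -0.21 there (-0.08 without RH cohort WT 1). T cell markers summed to 105 to 115 CPM in RH HOMO, against 103 to 150 CPM in RH cohort WT.

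Mef2b was lower in RH HOMO by -0.57 ± 0.11 (adjusted p = 0.0143) and higher in RH cohort WT than in KO cohort WT by 0.53 ± 0.11 (adjusted p = 0.0192), comparisons that share the RH cohort WT libraries. Without RH cohort WT 1 neither passed (-0.49, adjusted p = 0.0662, and 0.46, adjusted p = 0.0940), and the second was also lost without RH cohort WT 2, KO cohort WT 1 or KO cohort WT 2 (0.49 to 0.56). The nuclear RNA Neat1 was lower in RH cohort WT, with 44.2 ± 10.3 CPM in RH cohort WT and 71.6 ± 19.05 CPM in KO cohort WT (-0.69 ± 0.18, adjusted p = 0.0380), and passed in 15 of 25 alternatives. It was -0.51 without RH cohort WT 1 (adjusted p = 0.166) and -0.29 with that library counted in KO cohort WT (adjusted p = 0.812), and it was also lost without RH cohort WT 2, KO cohort WT 1 or KO cohort WT 2. The part of these genes in the mitochondrial values was not tested.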

How the data were processed

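RNA from 16 sorted germinal centre B cell samples was sequenced from TruSeq RNA v2 libraries, per the labels' protocols. The deposited table holds raw counts per gene, made by the authors with CASAVA 1.8, HISAT2 and featureCounts on mm10, per the submitters' processing notes. Annotation, strand and multi-mapping settings were not given in the sources used here. Groups come from the titles, and replicate numbers follow accession order. Counts were tested in R 4.3.3 with edgeR 4.0.16 (TMM scaling, filterByExpr, a model of 5 group means with 11 residual degrees of freedom). The quasi-likelihood test was used, with Benjamini-Hochberg over 16606 genes and a threshold of 0.05. The test was also run on simulated counts with the same dispersion for all genes and no outlying library. That run therefore cannot judge calls that rest on a single library. CPM is per 1000000 of the TMM-scaled library size. Alternatives used DESeq2 1.42.0, limma 3.58.1 and other scalings, filters and sets of libraries. Windows of 50 bases were matched between GENCODE M21 transcripts. Sums and shares over members carry no p. All members may be named, and from each list the called genes. Members and lists were chosen with earlier results of these data known.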

Additional observations from a re-analysis of the deposited data

Results flagged for a closer look

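Values of RH HET were checked for a library far from the other 3, the only group of 4 or more, over 34 quantities (the 33 members with counts and the mitochondrial share). A library was marked when its gap to the nearest other exceeded Dixon's 95% limit as a share of the group's range, which chance gives in about 1 of 20 groups. The 4 values marked all belong to RH HET 2. mt-Atp6 had 56.5 CPM there and 0.628 to 2.06 CPM in the other RH HET libraries. mt-Atp8, which overlaps it, had 4.75 CPM and 0.169 to 0.287 CPM. mt-Nd4l had 1.45 CPM and 0.860 to 0.918 CPM. mt-Cytb had 12203 CPM and 7405 to 8103 CPM. RH HET 2 also had the highest mitochondrial share of its group, 5.84%.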

How the results depend on the processing

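Member calls were few and moved with the settings. In KO, members called higher (1 in the report) were 2 with no count filter, 0 with limma-voom and 0 with RH cohort WT 1 counted as KO cohort WT, and 0 to 1 leaving out 1 library. In RH HET, members called lower (0) were 1 with no filter, 1 with DESeq2 and 12 with limma-voom, and 0 to 1 leaving out 1 library. In RH HOMO, members called lower (1) were 2 with no filter, 2 with DESeq2, 9 with limma-voom, 0 on only the libraries compared, 0 with RH cohort WT 1 as KO cohort WT and 0 without RH cohort WT 1 and RH HOMO 2, and 0 to 3 leaving out 1 library. In RH HOMO minus RH HET, members called lower (0) were 1 with no filter, where 0.203% of all genes were. Of all genes, those called higher in KO were 0.52% with no filter and 2.87% with limma-voom. They were 0.728% with RH cohort WT 1 as KO cohort WT and 18 to 171 genes leaving out 1 library. Those called lower in RH HET were 0.0586% with no filter, 0.211% with DESeq2 and 0.705% with limma-voom, and 0 to 3 genes leaving out 1 library. Those called lower in RH HOMO were 0.895% with no filter, 2.42% with DESeq2, 3.52% with limma-voom and 0% on only the libraries compared. They were 0.484% with RH cohort WT 1 as KO cohort WT and 0.777% without RH cohort WT 1 and RH HOMO 2. Leaving out 1 library, 81 to 173 genes were called lower in RH HOMO. In RH cohort WT minus KO cohort WT, members called higher (6) were 17 with no filter, 13 with DESeq2, 21 with limma-voom, 12 on only the libraries compared and 0 with RH cohort WT 1 as KO cohort WT, and 0 to 16 leaving out 1 library. Over all genes tested, those called higher there were 2.92% with no filter, 7.19% with DESeq2, 13.4% with limma-voom, 5.96% on only the libraries compared, 0.00583% with that library as KO cohort WT and 1 to 1497 genes leaving out 1 library, so both counts moved. Without RH cohort WT 1 and RH HOMO 2 together, 4 members and 4% of all genes were called. Counting RH cohort WT 1 as KO cohort WT also turned mt-Nd4l there to -3.77. Of 924 recomputed fold changes, 767 kept direction and side of the threshold, 69 lost and 87 gained a call, and 1 reversed. Of 693 recomputed shares, 0 moved beyond 1 SD. These were group medians and means without 1 library. Such values cannot lie more than 1 SD from the group mean, so this count tests nothing. The causes were not tested. No paired analysis was possible because the replicate numbers follow accession order and pair no libraries. Depth limits mt-Ts1, mt-Atp8 and mt-Tf, with as few as 0, 4 and 6 counts a library. The values of lists and of groups that stand apart without RH cohort WT 1 were chosen after seeing the data.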
